A study of Mus musculus with 4 samples.

Results

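Small structural RNAs and the genes that host them were followed in mouse bone marrow macrophages and osteoclasts, with and without a floxed St18 genotype. The members were chosen by name: genes whose symbol is Snora, Snord, Scarna, Rnu or Snhg followed by a number, together with Rn28s1, Rn7sk, Rn7s1, Rn4.5s, Rmrp, Rpph1, Terc and Gas5. Of 191 genes of the mouse gene table that met this rule, 40 had a named probe among the 22911 genes named on the array, and the other 151, Gas5 among them, were not analysed here. The 40 comprised 26 small RNAs and 14 snoRNA host genes (Snhg genes). The small RNAs were 13 small nucleolar and Cajal body RNAs (8 Snora, 3 Snord and 2 Scarna genes), 6 U-class RNAs (Rnu genes) and 7 others. Rn28s1 is a ribosomal RNA and not a small one, but the rule places it with them.

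Each of 4 groups had 1 one-colour microarray: osteoclasts of LysM-St18flox mice, osteoclasts of wild-type mice, macrophages of LysM-St18flox mice and macrophages of wild-type mice. Macrophages were marrow cells kept for 4 days in 25 ng/ml M-CSF, and osteoclasts were such cells given 3 more days with 25 ng/ml M-CSF and 50 ng/ml RANKL, so that RANKL and time in culture changed together. LysM-St18flox denotes, by convention, a loxP-flanked St18 gene and Cre recombinase made from the lysozyme M locus, which is active in myeloid cells. The wild-type groups are labelled with neither allele, and the sources used here do not say how many mice were used, nor their age or sex.

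Small nucleolar RNAs (snoRNAs) guide the chemical modification of ribosomal RNA: those with H/ACA boxes (Snora) direct the isomerisation of uridine to pseudouridine, and those with C/D boxes (Snord) direct methylation of ribose. The Cajal body RNAs (Scarna) do the same for the RNAs of the spliceosome. In mammals most of these RNAs are not transcribed on their own but are cut out of the introns of a host, which is either a protein-coding gene or a long non-coding Snhg gene whose spliced product often has no known protein. Osteoclasts are large, multinucleated and secretory cells, formed by fusion of macrophage-like precursors.

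Levels are given as log2 of the processed signal minus the 75th percentile of that array, and differences are differences of these levels, so that 1 stands for 2-fold. With 1 array a group there is no spread between cultures, no test and no p-value, and "changed", "rose" and "fell" mean a difference of at least 2-fold. The SD between spots of the same probe on an array had a median of 0.03 to 0.04, and the scanner's own error gave a difference between arrays an error of 0.20 to 0.35. Of the 40 members, 39 were well above background on all 4 arrays, none was saturated, and Snhg18 was above background on none. Values of different probes were not set against each other, since probes differ in how brightly they bind.

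The labels were checked first. St18, a zinc finger transcription factor, had levels of 1.12 in LysM-St18flox osteoclasts and 1.55 in wild-type osteoclasts, against -1.52 in LysM-St18flox macrophages and 0.29 in wild-type macrophages. Its genotype difference was -0.43 in osteoclasts and -1.81 in macrophages on this scale, and 0.34 and -1.14 with the spike-in scaling described below, so its direction in osteoclasts rests on the scaling. Whether the probe lies in the floxed part was not checked. All 10 osteoclast markers rose in osteoclasts of both genotypes. The summed level of 7 neutrophil markers (linear scale, 1 being the 75th percentile of the array) was 7.52 and 9.45 in LysM-St18flox and wild-type osteoclasts, and 15.1 and 13.02 in LysM-St18flox and wild-type macrophages. The sum of 7 B cell markers was 0.40 and 0.57 in the osteoclasts and 1.79 and 1.42 in the macrophages, in the same order of genotypes. Of the markers of T and NK cells, red cells and stroma, 2 of 6, 2 of 6 and 3 of 7 were above background on any array. The part of these cells in the results below was not tested, and in cultures of mixed cells fewer cells of a type and less RNA per cell cannot be told apart.

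**Figure D1:**
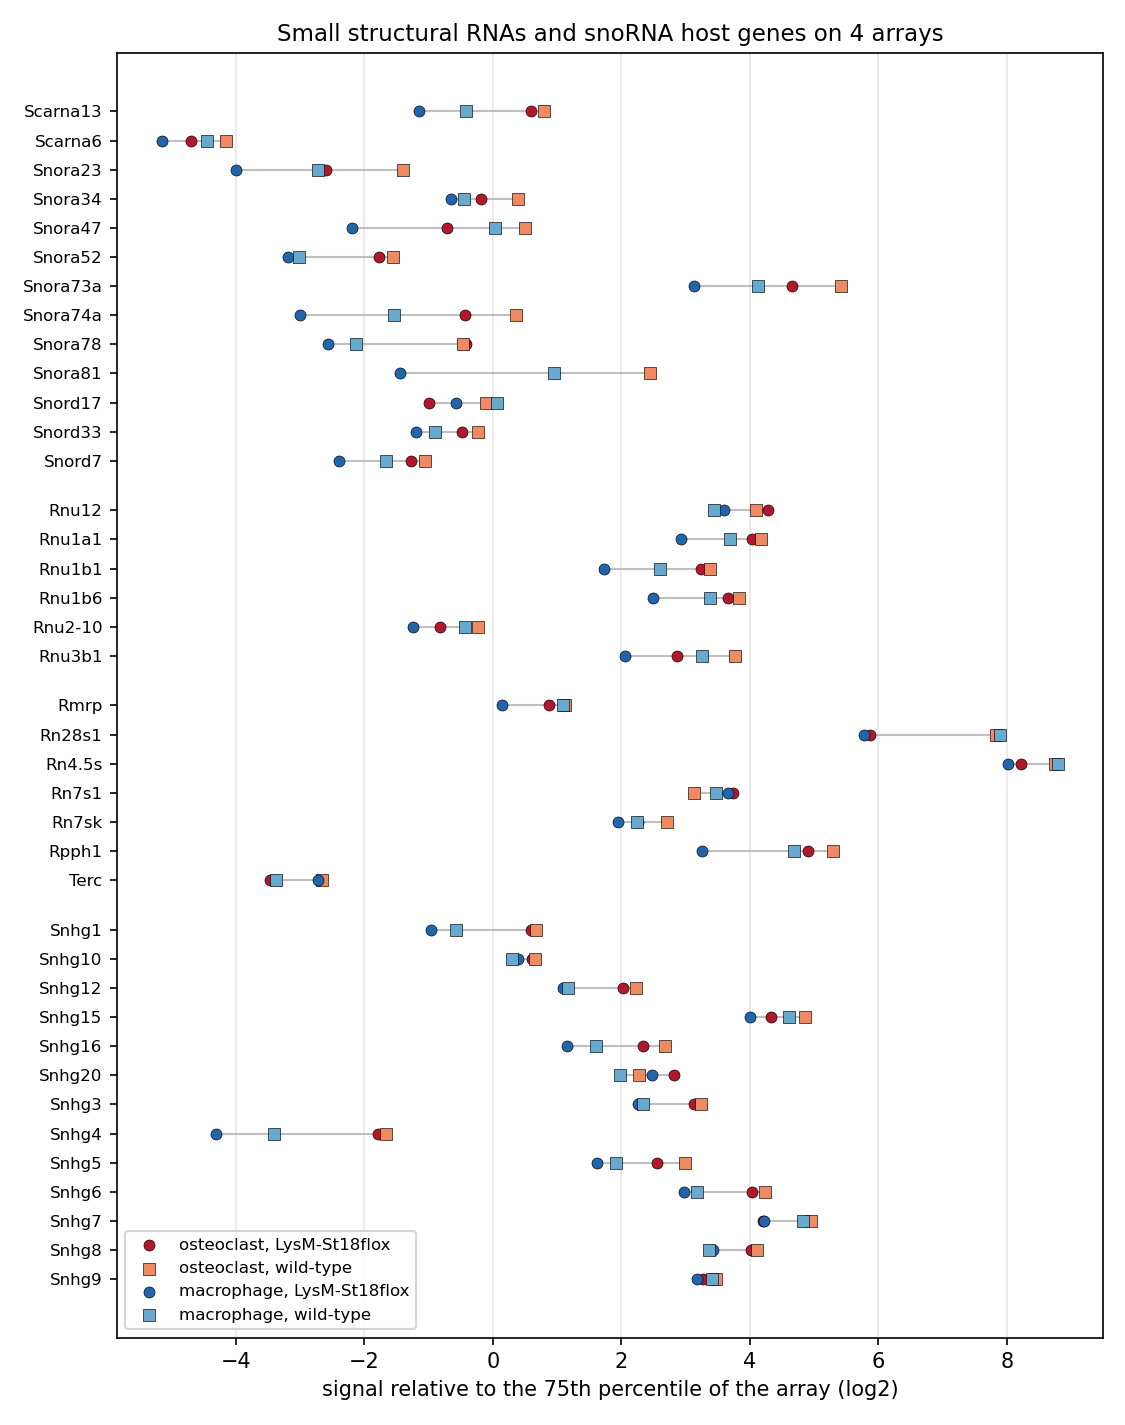
Level of each of 39 members on each of 4 arrays (log2 signal relative to the 75th percentile of the array), with 1 point an array and a grey line over their range. Points are to be compared along a line, since probes differ in brightness. Snora and Snhg lines mostly run from macrophages on the left to osteoclasts on the right, and Rn28s1 splits by genotype, at 5.88 and 5.77 in LysM-St18flox against 7.83 and 7.90 in wild-type cells.

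The host genes were higher in osteoclasts than in macrophages almost throughout. In LysM-St18flox cells 12 of 13 measured host genes were above 0 and 4 of them rose (30.8%), where 10.9% of all measured genes rose, 12.2% fell and 23.1% did either. In wild-type cells all 13 were above 0 and 6 rose (46.2%), where 5.61% of all genes rose, 7.2% fell and 12.8% did either. No host gene fell in either genotype. With spike-in scaling, described below with the genotypes, 3 rose in LysM-St18flox and 2 in wild-type cells, since several lay just past 2-fold. The median difference was 0.86 in LysM-St18flox and 0.90 in wild-type cells, where the median over all genes was 0.00 in both. Snhg1, Snhg4, Snhg6 and Snhg16 rose in both genotypes, and Snhg5 and Snhg12 rose in wild-type cells, by 1.07 and 1.05, and measured 0.94 each in LysM-St18flox cells.

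Snhg4 had the largest difference of the host genes under the main processing. Its levels were -1.79 and -1.66 in LysM-St18flox and wild-type osteoclasts, against -4.30 and -3.41 in LysM-St18flox and wild-type macrophages, so both osteoclast arrays lay above both macrophage arrays. The differences were 2.51 in LysM-St18flox and 1.75 in wild-type cells. The probe is dim in macrophages, with raw signals of 58.9 and 59.9 in LysM-St18flox and wild-type cells. Under other processing the differences of Snhg4 fell as low as 1.70 and 1.11. In wild-type cells Snhg1 lay between 1.24 and 1.25 under the same settings, so the ranking there depends on the processing. Snhg1, the host of several box C/D snoRNAs whose own exons are poorly conserved, had levels of 0.59 and 0.67 in the osteoclasts and -0.95 and -0.57 in the macrophages, in the same order of genotypes. Snhg16 had levels of 2.34 and 2.68 in LysM-St18flox and wild-type osteoclasts, against 1.15 and 1.60 in the macrophages. Osteoclasts and macrophages did not overlap in any of these 3 genes. How many of all genes separate in this way was not counted, here or for the genes below.

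At the other end, Snhg7 and Snhg9 hardly differed by cell type. Snhg7 had levels of 4.21 and 4.96 in LysM-St18flox and wild-type osteoclasts, against 4.22 and 4.83 in LysM-St18flox and wild-type macrophages. On this scale the arrays pair by genotype rather than by cell type. With spike-in scaling its genotype differences were 0.03 in osteoclasts and 0.07 in macrophages, so this pairing rests on the scaling. The sign of its cell type difference in LysM-St18flox cells, -0.01, turned positive in 1 of 6 other ways of processing. Snhg15 had 2 probes that disagreed: the brighter gave osteoclast differences of 0.33 and 0.26 in LysM-St18flox and wild-type cells, and the dimmer 0.64 and 0.68. Ribosomal protein genes, many of which start, like some host genes, with a tract of C and T, were counted for comparison. Of 87 measured, 1 rose in LysM-St18flox osteoclasts (Rpl39l, by 3.19) and 2 in wild-type osteoclasts (Rpl39l and Rpl37, by 1.65 and 1.25), with medians of 0.33 and 0.25.

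The start regions of host genes are shown because the genes are regulated there as transcripts of RNA polymerase II and because their differences spread widely. Sequences of 11 of the 13 measured host genes were found in the RefSeq promoter table (GRCm38.p6), and the 6 below run from 40 bases before the annotated start to 50 bases from it, on the strand of the gene. Capitals mark TATAA or its reverse complement TTATA, searched 15 to 40 bases before the start, and a run of at least 5 bases of C or T that begins at the start.
Snhg1 (chr19:8723447-8723536, plus strand): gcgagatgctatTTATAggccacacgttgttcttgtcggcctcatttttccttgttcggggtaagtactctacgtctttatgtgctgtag
Snhg12 (chr4:132308638-132308727, plus strand): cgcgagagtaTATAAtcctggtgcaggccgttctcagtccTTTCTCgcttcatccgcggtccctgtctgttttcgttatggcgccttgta
Snhg5 (chr9:88522848-88522937, minus strand): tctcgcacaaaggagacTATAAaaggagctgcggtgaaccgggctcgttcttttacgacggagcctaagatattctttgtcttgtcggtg
Snhg8 (chr3:123508287-123508376, minus strand): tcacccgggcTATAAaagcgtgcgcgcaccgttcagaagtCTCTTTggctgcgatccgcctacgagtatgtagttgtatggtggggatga
Snhg7 (chr2:26640195-26640284, minus strand): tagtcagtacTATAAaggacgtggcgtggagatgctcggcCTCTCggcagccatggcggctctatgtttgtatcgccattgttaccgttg
Snhg16 (chr11:116671620-116671709, plus strand): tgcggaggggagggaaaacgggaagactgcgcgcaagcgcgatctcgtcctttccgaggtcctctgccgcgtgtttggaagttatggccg

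TATAA on either strand lay in that stretch in 5 of 11 host promoters (Snhg1, Snhg5, Snhg7, Snhg8 and Snhg12), or 45.5%, against 4.44% of 32851 promoters in the table and 6.33% of ribosomal protein promoters. Snhg16 is printed as one without it. The 5 genes with the motif differed between osteoclasts and macrophages by -0.01 to 1.54 in LysM-St18flox cells and 0.13 to 1.24 in wild-type cells, and the 6 without it by 0.10 to 1.19 and 0.07 to 1.08. The ranges overlapped, and the medians were 0.94 and 1.05 with the motif, against 0.33 and 0.32 without it, in LysM-St18flox and wild-type cells, which was not tested. Snhg3 and Snhg9, counted as without it, have TATAA within the 50 bases that follow the annotated start. The grouping therefore depends on where the start is annotated. A start at C followed by at least 4 of C or T, the beginning of the terminal oligopyrimidine tract that ties translation to nutrient signals, was found in Snhg7 and Snhg8 (18.2%), against 2.51% of all promoters and 19.0% of ribosomal protein promoters. CACGTG, the letters that Myc with its partner Max is known to bind, stood in the 300 bases around the start in Snhg9 and Snhg15 (18.2%, against 7.15% of all), on either strand. A match describes letters only.

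The snoRNAs and Cajal body RNAs exceeded the host genes in how far they differed between cell types. Of 13, 9 rose in LysM-St18flox osteoclasts (69.2%) and 7 in wild-type osteoclasts (53.8%), where 10.9% and 5.61% of all genes rose. None of the 13 fell. The medians were 1.42 and 1.21. The H/ACA class carried most of this: 7 of 8 Snora genes rose in LysM-St18flox and 6 of 8 in wild-type osteoclasts, with medians of 1.498 and 1.39 and every one of the 8 above 0 in both genotypes. The 7 were Snora23, Snora47, Snora52, Snora73a, Snora74a, Snora78 and Snora81. Over all 26 small RNAs, 13 rose in LysM-St18flox cells (50.0%) and 7 in wild-type cells (26.9%), and these 7 were 6 Snora genes and Scarna13. The medians of the 26 were 0.95 and 0.60, against 0.86 and 0.90 for the host genes. Small RNAs as a whole thus lay close to the host genes in LysM-St18flox cells and below them in wild-type cells. With normexp background correction, 11 of the 26 rose in LysM-St18flox and 5 in wild-type cells.

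Snora74a, in human the snoRNA U19, had levels of -0.43 and 0.37 in LysM-St18flox and wild-type osteoclasts, against -2.99 and -1.53 in LysM-St18flox and wild-type macrophages. Its differences of 2.56 and 1.90 were the highest of any member in either genotype. Snora81, which lies in the translation factor gene Eif4a2, had levels of 0.95 and 2.45 in LysM-St18flox and wild-type osteoclasts, against -1.45 and 0.96 in the macrophages. Osteoclasts were higher by 2.39 and 1.49 within the genotypes, while LysM-St18flox osteoclasts and wild-type macrophages stood level. Snora78 had levels of -0.42 and -0.47 in LysM-St18flox and wild-type osteoclasts, against -2.56 and -2.12 in the macrophages. Its differences were 2.14 and 1.65.

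Snora73a, in human U17, acts in the cleavage of the ribosomal RNA precursor rather than in its modification. Its levels were 4.65 and 5.42 in LysM-St18flox and wild-type osteoclasts, against 3.13 and 4.13 in the macrophages. Snora23 had levels of -2.59 and -1.39 in LysM-St18flox and wild-type osteoclasts, against -3.99 and -2.72 in the macrophages. Snora52 had levels of -1.76 and -1.55 in LysM-St18flox and wild-type osteoclasts, against -3.19 and -3.01 in the macrophages. Both differed by cell type to a like degree in the 2 genotypes, whereas Snora47 differed by 1.48 in LysM-St18flox and 0.47 in wild-type cells. Scarna13, which guides modification of spliceosomal RNA, had levels of 0.59 and 0.79 in osteoclasts, against -1.14 and -0.42 in macrophages, in the same order.

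The C/D class was smaller and less uniform. Snord7 had differences of 1.12 in LysM-St18flox and 0.59 in wild-type cells, Snord33 of 0.71 and 0.67, and Snord17 of -0.43 and -0.18, so that Snord17 alone of the 13 was lower in osteoclasts of both genotypes. Snora34 (0.47 and 0.83) and Scarna6 (0.45 and 0.29) did not reach 2-fold. Scarna6 is dim, with levels between -5.15 and -4.15, close to the lowest signals called above background.

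**Figure D2:**
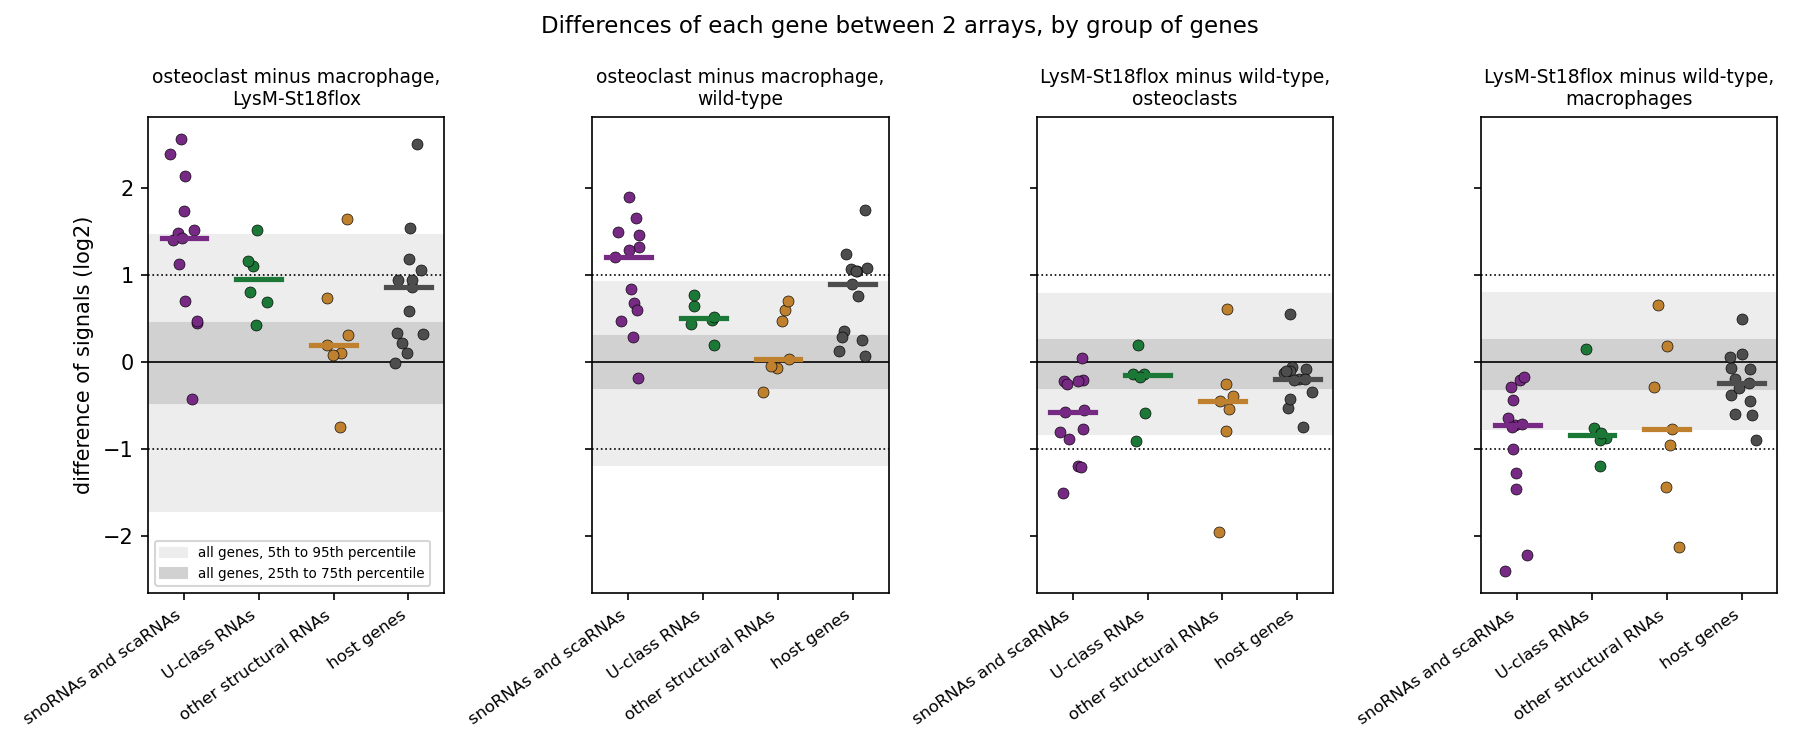
Difference of each member between 2 arrays (log2) in 4 comparisons, by group of genes, with a bar at the median. Grey bands hold the central 50% and 90% of all measured genes, and dotted lines mark 2-fold. In the first 2 panels all snoRNAs and host genes but Snord17 and, in the first, Snhg7 lie above 0, and in the last 2 the small RNAs lie lower than the host genes, though with spike-in scaling the small RNA median of the third panel is 0.28 and that of the fourth -0.09.

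Each snoRNA was then set beside the gene whose span contains it. All 13 snoRNAs and Cajal body RNAs lay inside a gene, 4 of them inside a Snhg gene, and 12 containing genes were measured. The small RNA had the higher osteoclast difference in 12 of 12 pairs in LysM-St18flox cells and in 12 of 12 pairs in wild-type cells, with a median gap of 0.72 and 0.49. With normexp and with quantile normalization it was 11 of 12 in LysM-St18flox cells. A constant factor for an array cannot alter these gaps. Small RNA and containing gene were read by different probes, and a probe within an intron can also bind unspliced host RNA, so mature and precursor RNA cannot be told apart.

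The pairs differed in kind. Snora74a and its host Snhg4 lay close together, the snoRNA at 2.56 and 1.90 in LysM-St18flox and wild-type cells and the host at 2.51 and 1.75. This closeness depends on the processing. Under other settings Snhg4 measured as low as 1.70 and 1.11, while Snora74a measured no lower than 2.08 and 1.84. Snora78 and Snhg9 parted: the snoRNA rose by 2.14 and 1.65 in LysM-St18flox and wild-type cells, and Snhg9 differed by 0.10 and 0.07. Scarna13 rose by 1.73 and 1.21 while Snhg10 differed by 0.22 and 0.36. Snora73a rose by 1.52 and 1.29 beside Snhg3 at 0.86 and 0.90.

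Among the 8 pairs with a protein-coding host the gap ran between 0.17 and 2.19 in LysM-St18flox cells and between 0.30 and 1.34 in wild-type cells. Snora81 rose by 2.39 and 1.49 in LysM-St18flox and wild-type cells, where Eif4a2 differed by 0.20 and 0.36. Snora52 rose by 1.42 and 1.46, where Rplp2, a protein of the ribosomal stalk, differed by 0.24 and 0.12. Snora23 rose by 1.41 and 1.33, and its host Ipo7, an importin that carries ribosomal proteins into the nucleus, differed by 1.01 and 0.82. Snora47 had 1.48 and 0.47 beside Zbed3 at -0.08 and -0.37. Even Snord17, lower in osteoclasts, lay above its host Snx5, a sorting nexin, at -1.21 and -0.56. In LysM-St18flox cells the narrowest of these 8 gaps were 0.17 (Snora34), 0.25 (Scarna6) and 0.26 (Snord33), near the scanner error of a single difference. In wild-type cells the same gaps were 0.48, 0.30 and 0.43. Snora34 differed by 0.47 and 0.83 in LysM-St18flox and wild-type cells and its host Kansl2 by 0.29 and 0.35. Scarna6 differed by 0.45 and 0.29, and the autophagy gene Atg16l1 around it by 0.20 and -0.01. Snord33 differed by 0.71 and 0.67, and its host Rpl13a, a ribosomal protein gene, by 0.45 and 0.24.

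**Figure D3:**
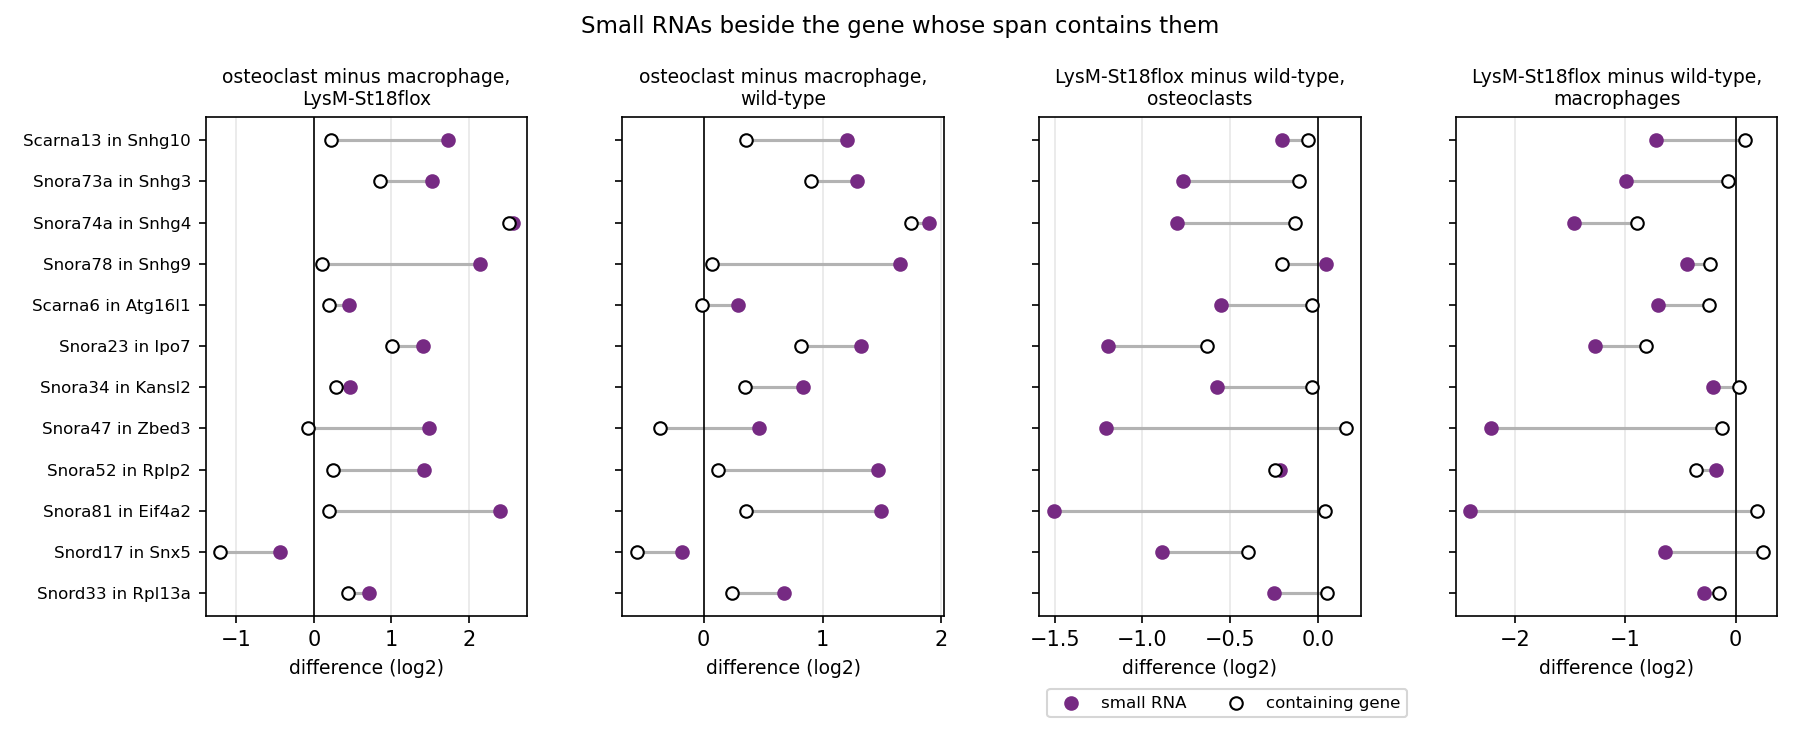
Differences (log2) of 12 small RNAs (filled points) and of the gene whose span contains each (open points) in 4 comparisons, with Snhg hosts in the top 4 lines. Filled points lie right of open points in 12 of 12 lines in the first 2 panels, and left of them in 10 of 12 lines of the third and 11 of 12 of the fourth panel. The gap between points is the same under any constant scaling of an array, while the side of 0 in the last 2 panels is not.

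The U-class RNAs, which form the core of the spliceosome except for U3, differed less by cell type. All 6 were above 0 in both genotypes, with medians of 0.95 in LysM-St18flox and 0.50 in wild-type cells. In LysM-St18flox osteoclasts 3 rose (50.0%, against 10.9% of all genes), and in wild-type osteoclasts none. The 3 were the U1 genes Rnu1a1, Rnu1b1 and Rnu1b6. U1 RNA pairs with the 5′ splice site, and its gene copies are so alike that reads of the 3 probes cannot be taken as independent. Rnu1b1 had levels of 3.24 and 3.38 in LysM-St18flox and wild-type osteoclasts, against 1.73 and 2.61 in the macrophages. Here the wild-type macrophages stood nearer to the osteoclasts than the LysM-St18flox macrophages did. Rnu12, the U12 RNA of the minor spliceosome, differed evenly, by 0.69 and 0.65. Rnu3b1 encodes U3, the C/D RNA needed to cut small-subunit ribosomal RNA from its precursor, and differed by 0.80 and 0.51.

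The other structural RNAs did not share a direction. Rpph1, the RNA of ribonuclease P, which trims the 5′ end of transfer RNAs, rose by 1.65 in LysM-St18flox cells and differed by 0.60 in wild-type cells. Its levels were 4.90 and 5.30 in LysM-St18flox and wild-type osteoclasts, against 3.25 and 4.69 in LysM-St18flox and wild-type macrophages, so that the LysM-St18flox macrophages stood apart from the other 3 arrays. Rmrp, the related RNA of ribonuclease MRP, was likewise lowest in the LysM-St18flox macrophages, with levels of 0.88 and 1.13 in LysM-St18flox and wild-type osteoclasts, against 0.14 and 1.09 in the macrophages.

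Rn7sk, which holds the elongation factor P-TEFb inactive, differed by 0.31 in LysM-St18flox and 0.47 in wild-type cells. Rn7s1, the 7SL RNA of the signal recognition particle, differed by 0.08 and -0.34, and its sign in LysM-St18flox cells was negative in 2 of 6 other ways of processing and with spike-in scaling. Rn4.5s, a rodent RNA made by RNA polymerase III, differed by 0.19 and -0.04, the wild-type value changing sign in 2 of 6. Rn28s1 differed by 0.10 and -0.07, each changing sign in at least 1 of 6. Near-identical copies of 7SL and 4.5S RNA occur across rodent genomes, and which copies these probes read was not tested.

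In the comparison of genotypes the small RNAs and the host genes differed in size, the small RNAs lying lower relative to the 75th percentile of the array, though not all of them with spike-in scaling. In osteoclasts 4 of 26 small RNAs fell in LysM-St18flox cells (15.4%) and none rose, where 3.83% of all genes fell, 3.7% rose and 7.53% did either, and the median was -0.49. In macrophages 7 of 26 fell (26.9%) and none rose, where 2.95% of all genes fell, 3.27% rose and 6.21% did either, and the median was -0.76. Of 13 host genes none fell or rose in either cell type, with medians of -0.19 in osteoclasts and -0.24 in macrophages. The groups parted in size more than in sign: 23 of 26 small RNAs lay below 0 in both cell types, and so did 12 of 13 host genes in osteoclasts and 10 of 13 in macrophages, against 51.9% and 52.2% of all genes. The osteoclast cultures also differed in their markers, of which 8 of 10 were at least 2-fold higher in LysM-St18flox osteoclasts (median 1.20, with Oscar at 2.30, Calcr at 2.096 and Mmp9 at 2.08), and the part of this in the small RNA values was not tested.

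These directions rest on the scaling. The 75th percentile of the raw signal was 1062 and 770 in LysM-St18flox and wild-type osteoclasts, and 1159 and 636 in LysM-St18flox and wild-type macrophages. Scaling instead to 7 probes for spike-in control RNA, an alternative chosen after seeing the data, adds 0.77 to every genotype difference in osteoclasts and 0.68 in macrophages. The median over all genes then became 0.77 and 0.67, that of the host genes 0.58 and 0.44, and that of the small RNAs 0.28 and -0.09. Of the small RNAs 1 then fell and 1 rose in osteoclasts, and 3 fell and 1 rose in macrophages. The median of the small RNAs less that of the host genes was -0.30 in osteoclasts and -0.53 in macrophages, which a constant cannot alter. In osteoclasts it was -0.12 with quantile normalization and -0.10 with the authors' deposited table. What follows is therefore stated relative to the 75th percentile, and the small RNAs as a group were lower only in that sense.

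The small RNAs that fell in both cell types were Snora23, Snora47, Snora81 and Rn28s1. Snora81 differed by -1.51 in osteoclasts and -2.41 in macrophages, which is 2.84-fold and 5.30-fold lower. Snora47 had levels of -0.71 and 0.50 in LysM-St18flox and wild-type osteoclasts, against -2.18 and 0.03 in LysM-St18flox and wild-type macrophages, so both LysM-St18flox arrays lay below both wild-type arrays. How many of all genes separate by genotype in this way was not counted. Snora23 differed by -1.19 in osteoclasts and -1.27 in macrophages. With spike-in scaling the differences of Snora81, Snora47 and Snora23 were -0.74, -0.44 and -0.42 in osteoclasts and -1.73, -1.54 and -0.60 in macrophages.

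A further 3 RNAs fell in macrophages and did not reach 2-fold in osteoclasts. Snora74a differed by -0.80 in osteoclasts and -1.46 in macrophages, Rnu3b1 by -0.91 and -1.20, and Rpph1 by -0.39 and -1.44. Other Snora genes hardly differed by genotype: Snora52 by -0.22 and -0.18, and Snora78 by 0.05 and -0.44. The snoRNAs were thus unlike each other in genotype even where they were alike in cell type.

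Rn28s1, RNA of the large ribosomal subunit, had the raw signals 62366 in LysM-St18flox osteoclasts and 175203 in wild-type osteoclasts, against 63315 in LysM-St18flox macrophages and 151780 in wild-type macrophages. The arrays fell into pairs by genotype and not by cell type. The scaled differences were -1.95 in osteoclasts and -2.13 in macrophages, and -1.18 and -1.45 with spike-in scaling. Ribosomal RNA carries no poly(A) tail and the label is primed, by the maker's design, on poly(A), so what share of this signal reflects ribosomal RNA content was not measured. Rn4.5s, whose spots had raw signals of 315025 and 331417 in LysM-St18flox and wild-type osteoclasts and 301077 and 281412 in the macrophages, differed by -0.54 in osteoclasts and -0.77 in macrophages, and by 0.23 and -0.09 with spike-in scaling.

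A few members went the other way relative to the 75th percentile. Rn7s1 was above 0 in both cell types, by 0.61 in osteoclasts and 0.19 in macrophages, as were Rnu12 (0.20 and 0.15) and, among host genes, Snhg20 (0.55 and 0.49). None of these reached 2-fold. Snhg7 and Snhg15 had the most negative genotype differences of the host genes in osteoclasts, at -0.74 and -0.53, and Snhg4 in macrophages, at -0.89. The dimmer probe of Snhg15 gave -0.03 in osteoclasts and 0.01 in macrophages, where the brighter gave -0.53 and -0.60.

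Set beside their containing genes, the small RNAs were the lower in LysM-St18flox in 10 of 12 pairs in osteoclasts and 11 of 12 in macrophages, with median gaps of -0.53 and -0.52. The containing gene Eif4a2 differed by 0.04 in osteoclasts and 0.20 in macrophages, where Snora81 differed by -1.51 and -2.41. Zbed3 differed by 0.16 and -0.13, where Snora47 differed by -1.21 and -2.22. Ipo7 followed its snoRNA part of the way, at -0.63 and -0.82 beside -1.19 and -1.27. The exceptions were Snora52 in both cell types and Snora78 in osteoclasts, which lay above Rplp2 and Snhg9. The genotype and cell type comparisons use the same 4 arrays, so a low value of a small RNA on the LysM-St18flox macrophage array enters both.

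**Figure D4:**
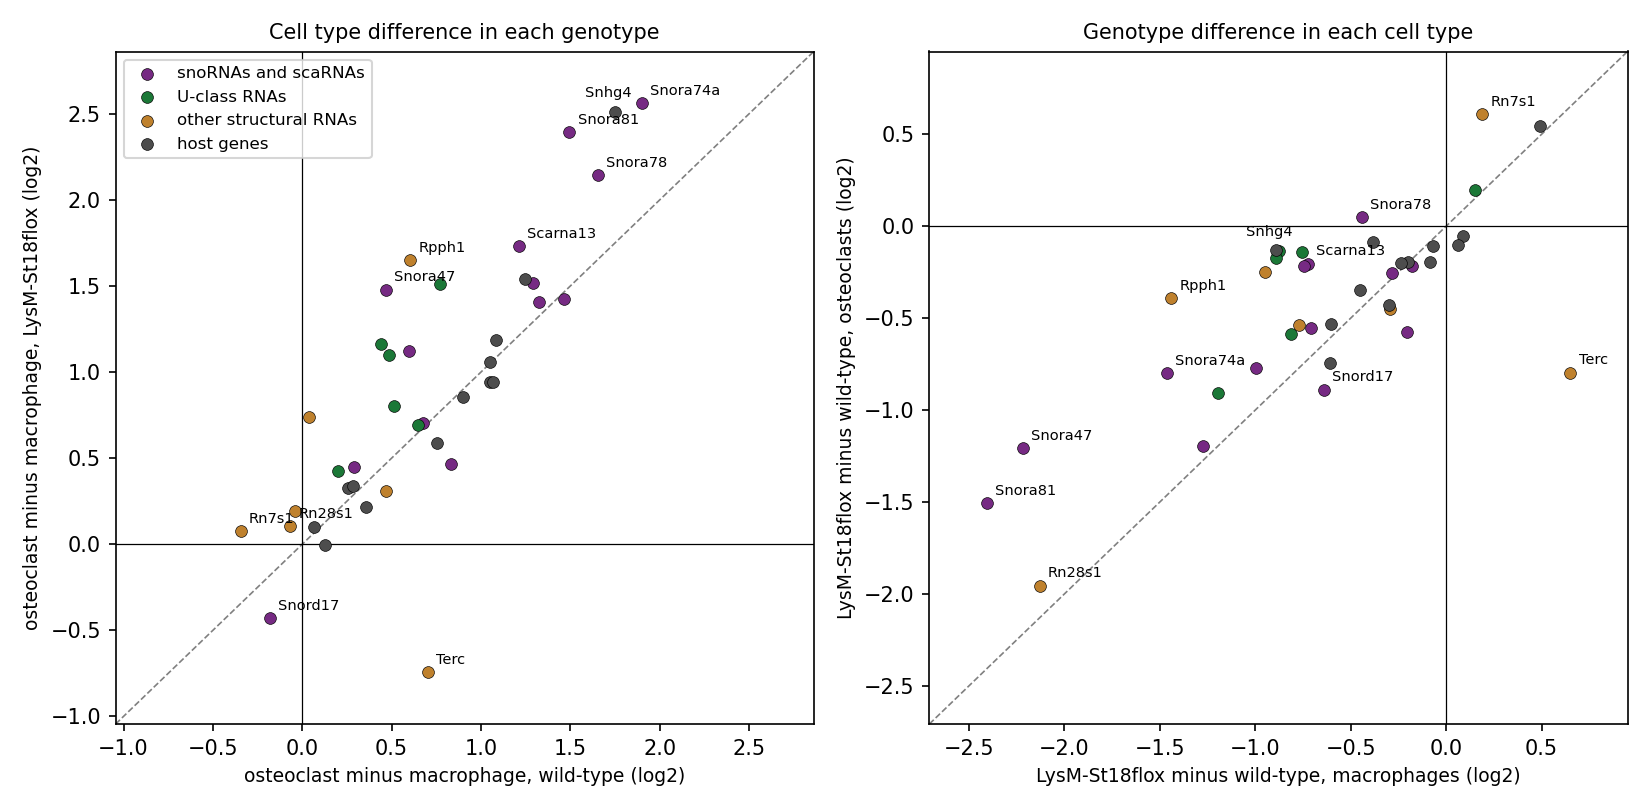
Differences (log2) of 39 members, with LysM-St18flox cells against wild-type cells on the left and osteoclasts against macrophages on the right, and a dashed line where both are equal. On the left most small RNAs lie above the line and the host genes close to it. On the right Rn28s1, Snora81 and Snora47 are low in both cell types and Terc has opposite signs. With spike-in scaling all points of the right panel move right by 0.68 and up by 0.77, which turns the sign of many.

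Taken with its sign, the cell type difference was larger in LysM-St18flox than in wild-type cells for 21 of 26 small RNAs and 7 of 13 host genes, against 7411 of 13667 genes in all. The median of this difference of differences was 0.26 over the small RNAs, 0.01 over the host genes and 0.04 over all genes. Cell type differences of all genes were also wider in LysM-St18flox cells. The central 50% ran from -0.48 to 0.45 there, against -0.30 to 0.30 in wild-type cells. Genes higher in osteoclasts were not counted apart, so the part of this widening in the small RNA values was not tested. The difference of differences reached 2-fold in 3 of 39 members, a share near the 7.9% of all genes. The 3 were Rpph1 (1.05), Snora47 (1.01) and Terc (-1.45). Snora81 followed at 0.90, Snhg4 at 0.76 and Rnu1b1 at 0.74. Terc, the template RNA of telomerase, had levels of -3.46 and -2.66 in LysM-St18flox and wild-type osteoclasts, against -2.72 and -3.37 in LysM-St18flox and wild-type macrophages. Its probe is dim, with raw signals of 96.4 and 121.5 in these osteoclasts and 176.4 and 61.7 in these macrophages. Terc was the only member whose cell type difference had opposite signs of more than 0.5, at -0.74 and 0.70, and no array repeats it. With normexp background correction the difference of differences of Terc was -0.73 and that of Snora47 0.56, both under 2-fold, and Rpph1 measured 0.98 with quantile normalization and 0.99 with the authors' deposited table.

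Proteins that bind or make these RNAs were counted from lists, beside the 10.9% and 5.61% of all genes that rose in LysM-St18flox and wild-type osteoclasts. Of 4 C/D core proteins, 3 rose in LysM-St18flox osteoclasts (Nop58 by 1.46, Nop56 by 1.31 and Snu13 by 1.003) and none in wild-type osteoclasts, with medians of 1.15 and 0.76. Of 6 H/ACA proteins, 4 rose in LysM-St18flox osteoclasts (Dkc1 by 2.09, Gar1 by 1.47, Nhp2 by 1.28 and Nop10 by 1.12) and 1 in wild-type osteoclasts, with medians of 1.20 and 0.73. Dkc1, the pseudouridine synthase itself, had levels of 0.62 and 0.77 in LysM-St18flox and wild-type osteoclasts, against -1.47 and -0.46 in LysM-St18flox and wild-type macrophages. The order of these 4 values, with LysM-St18flox macrophages lowest, is that of Rpph1 and Rnu1b1. It is not particular to them, since Snora73a, Snora74a, Snhg1 and Snhg4, among others, have it as well. The order of the osteoclasts rests on the scaling: with spike-ins their genotype difference was 0.38 for Rpph1 and 0.63 for Rnu1b1.

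Ribosome biogenesis factors followed: 15 of 25 rose in LysM-St18flox osteoclasts and 6 of 25 in wild-type osteoclasts, none fell, and the medians were 1.12 and 0.78. Myc, the transcription factor that drives ribosome production, rose by 2.18 and 1.28, Rrs1 by 1.91 and 1.07, Gnl3 by 1.71 and 1.03 and Nop16 by 1.56 and 1.09. Of 14 genes of RNA polymerase I, 2 rose in LysM-St18flox osteoclasts (Polr1b by 2.04 and Taf1a by 1.29), and 1 in wild-type osteoclasts (Polr1b, by 1.096), shares of 14.3% and 7.14% that are near those of all genes. Of 20 genes of RNA polymerase III, which makes Rpph1, Rmrp, Rn7sk, Rn7s1 and Rn4.5s, Gtf3c5 rose by 2.29 and 2.13, Polr3d rose by 1.18 in LysM-St18flox cells, and Polr3gl fell by 1.04 there. The shares that rose, 10.0% and 5.0%, are again near those of all genes. Of 11 proteins of ribonucleases P and MRP, 5 rose in LysM-St18flox osteoclasts, led by Rpp25 at 1.39 and Pop4 at 1.29, and none in wild-type osteoclasts. Rpp25 is dim, with levels of -5.18 and -4.71 in LysM-St18flox and wild-type macrophages, close to the lowest signals called above background. Taf1a is dim as well, at -4.24 in LysM-St18flox macrophages.

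Other partner lists held few or no genes past 2-fold in osteoclasts. None of 7 assembly factors of snoRNA particles, 7 genes of the 7SK particle, 8 of the signal recognition particle, 12 spliceosomal U1, U2 and Sm proteins or 19 genes of the SNAP and Integrator complexes reached 2-fold in either genotype. In that order their medians were 0.56, -0.06, 0.40, 0.54 and 0.31 in LysM-St18flox cells. In wild-type cells the medians were 0.33, 0.10, 0.13, 0.37 and 0.19. Single genes rose in 3 more lists, at shares of 5.88% to 16.7% in LysM-St18flox cells: Nolc1 (1.66 and 1.07) and Gemin5 (1.002 in LysM-St18flox) of 12 telomerase and Cajal body proteins, Smg5 (1.08 in LysM-St18flox) of 10 decay factors, and Dis3 (1.27 in LysM-St18flox) of 17 exosome and trimming genes.

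By genotype none of the genes of these partner lists reached 2-fold in osteoclasts, and the medians of the lists ran between -0.41 and 0.18. In LysM-St18flox macrophages Dkc1, Myc, Nop16, Polr1b and Taf1a fell, by 1.02, 1.16, 1.07, 1.02 and 1.06, and the medians were -0.81 for C/D proteins, -0.59 for H/ACA proteins and -0.54 for biogenesis factors. With spike-in scaling 0.68 is added to each, which leaves the biogenesis and H/ACA medians above 0. All 20 cell cycle genes lay below 0 in LysM-St18flox cells of both types, against 51.9% of all genes in osteoclasts and 52.2% in macrophages. Their medians were -0.45 in osteoclasts and -0.73 in macrophages, and Tyms fell by 1.08 in macrophages. These signs also rest on the scaling. Spike-in scaling adds 0.77 in osteoclasts, where the lowest of the 20 was -0.75, so all 20 then lie above 0. The 0.68 added in macrophages leaves their median there below 0. The part of cell division in the levels of small RNAs was not tested.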

How the data were processed

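Per the file headers, every spot of the deposited scanner files has a processed intensity that is background-subtracted within the array and not scaled between arrays, together with median pixel intensities and other flags, deposited as 0 or 1, for spots above background, saturated or uneven. The submitters' processing notes name Agilent Feature Extraction 11.0.1.1. A second file deposited by the authors holds log2 values of 30909 probes, with every column's median at 9.39, and how it was scaled and centred is not stated in what was read here. Per the labels, 100 ng of total RNA was labelled with the Quick Amp kit, which by the maker's design primes on poly(A). RNAs without such a tail are then labelled poorly or through precursors.

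Spots were averaged per probe, divided by the 75th percentile of the array and log2-transformed. Genes with several probes took the one brightest on average, named through RefSeq accession in a gene table of GRCm38.p6 (32994 of 56605 probes named). The headers name another build, so this table gave names and neighbours only. A gene entered a comparison when well above background on at least 1 of 2 arrays. Containing genes were those with the smallest span that holds the small RNA, and the strand was not checked because the table gives none. Named were the members past 2-fold in any comparison, all structural RNAs outside the Snora, Snord, Scarna and Rnu classes, all measured host genes, containing genes, and up to 4 genes of a list past 2-fold. For lists with more, the 4 or fewer with the largest differences are named, and some members within 2-fold are given as contrasts. Members and lists were chosen with earlier results of these data known. Levels were computed in Python 3.11.15 with pandas 2.3.3, and background correction by normexp with limma 3.58.1. The script was tested on simulated data.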

Additional observations from a re-analysis of the deposited data

Results flagged for a closer look

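Terc stood out because its cell type difference had opposite signs in the genotypes. Osteoclasts were lower than macrophages by 0.74 in LysM-St18flox cells (-3.46 against -2.72) and higher by 0.70 in wild-type cells (-2.66 against -3.37), which gives a difference of differences of -1.45. With normexp background correction it was -0.73, under 2-fold, and with quantile normalization -1.27. The probe is dim, with raw signals of 96.4 and 121.5 in LysM-St18flox and wild-type osteoclasts and 176.4 and 61.7 in the macrophages. The difference was not tested, since each value is 1 array.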

How the results depend on the processing

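No paired analysis was possible because each group had 1 array and no replicate number. Of 41 differences of members past 2-fold, 260 values under other settings stayed within the scanner's error of the difference and 27 moved by more, none reversing. With 1.5-fold as the size, 8 host genes changed in LysM-St18flox and 14 small RNAs in wild-type osteoclasts against macrophages, 10 small RNAs and 1 host gene by genotype in osteoclasts, 19 and 3 in macrophages, and 10 members in the difference of differences. With spike-in scaling 2 host genes changed between wild-type cell types, 2 small RNAs and 1 host gene by genotype in osteoclasts, and 4 and 1 in macrophages. The median of small RNAs less that of host genes was, with normexp, -0.04 between LysM-St18flox cell types (main value 0.09), -0.47 between wild-type cell types (-0.30), -0.25 by genotype in osteoclasts (-0.30) and -0.65 in macrophages (-0.53). It was 0.23 and -0.23 for the cell types with no filter, and by genotype in osteoclasts -0.12 with quantile normalization, -0.10 with the authors' deposited table and -0.35 without near-identical copies. With normexp 1 member, Rpph1, passed 2-fold in the difference of differences. Pairs in which the small RNA was higher by genotype numbered 0 in macrophages with normexp, quantile normalization and the deposited table, and 1 in osteoclasts with quantile normalization and the deposited table. Among all genes changed by genotype in osteoclasts, 49.1% were higher, against 62.2% with quantile normalization and with the deposited table, and 98.3% with spike-ins (macrophages 52.6% and 97.3%). Counts of all genes also depended on the filter and the background correction. The precision of every value is limited by 1 array a group, and the cause of these shifts was not tested.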
